A study of Mus musculus with 7 samples.

Results

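The cytosolic tRNA that carries cysteine was described across mouse oligodendrocyte progenitor cells (OPCs), oligodendrocytes (OLs) and astrocytes. Its members are the pool with the anticodon GCA, which is 1 of 52 anticodons listed, and the 22 rows named Cys-GCA among the 217 cytosolic isodecoders listed. They were taken by name, and no measured value chose among them. The family itself was selected on earlier results of these data, in which Cys-GCA-8 stood out between OLs and astrocytes, so values of that contrast are given here without a test and the other tests are not independent support.

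The OPCs (3 libraries) had been derived from epiblast stem cells of strain 129S/SvEv and were kept in medium with bFGF and PDGFA. The OLs (2 libraries) were made from such OPCs with thyroid hormone (T3), noggin, IGF-1, cyclic AMP and NT3. The astrocytes (2 libraries) were made from OPCs with BMP4, bFGF, Hb-EGF and CNTF in a medium that also held N-acetyl-cysteine. As the study describes its cultures, some cells of an OL culture remain undifferentiated OPCs. The tables hold tRNAs only, so the labelled cell types could not be checked against marker mRNAs. In bulk RNA, fewer cells of a type and less of a tRNA per cell cannot be told apart.

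Cys-GCA is the tRNA that reads both cysteine codons, UGU and UGC. Cysteinyl-tRNA synthetase attaches the amino acid, which cells use in disulfide bonds, iron-sulfur clusters and, as the free amino acid, glutathione. Isodecoders share an anticodon and differ elsewhere in the body of the tRNA, and in mouse the cysteine family holds many such near-identical copies. Before the libraries were made the RNA had been deacylated, so tRNAs with and without an amino acid were read alike. On acid-urea Northern blots the study saw more uncharged Cys-GCA in OLs, while most other tRNAs were fully charged in each cell type. The counts described here cannot show such a difference.

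Levels are given as RPM, the read count of a tRNA scaled to all reads assigned to tRNAs in its library. Each read comes from the copy of one tRNA rather than from a fragment of a long RNA, and tRNAs are close in length, so RPM was compared between tRNAs with no term for length. The libraries held between 1339021 and 2627351 reads assigned to tRNAs, and a count of 3 reads, the most that a count of 0 allows, corresponded to between 1.14 and 2.24 RPM. Intervals on single libraries cover counting error only, since PCR copies of a molecule were not marked.

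RefSeq lists 57 Cys-GCA tRNA genes on the mouse build GRCm38.p6, which makes it the anticodon with the most genes among those matched to the table, followed by Lys-CUU with 24. Of these, 49 lay on chromosome 6 between positions 47978997 and 48363603, with a median gap of 3489 bases from one gene to the next. Another 5 lay on chromosome 11 (97769829 to 97988994), 2 on chromosome 9 (104400120 to 104404127) and 1 on chromosome 17 (71599271 to 71599342). In 56 of the 57 genes the annotated length was 72 bases. On the GENCODE annotation of the same build 7 of the genes, all on chromosome 6, lay in introns of another gene, 50 were intergenic and 0 overlapped an exon. The gene symbols of RefSeq do not pair with the isodecoder numbers, so a level cannot be placed at one of these loci. The names of the 22 rows write out 27 gene copies, 4 of them for Cys-GCA-3. The name of Cys-GCA-4 joins 2 copy numbers that do not follow each other, and it was counted as 2 copies. If these mark the ends of a range, the rows cover more genes than 27 and Cys-GCA-4 more than Cys-GCA-3.

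The counted level of the pool was low for a family of that size. Reads below a mapping quality of 10 were not counted. Reads ambiguous between near-identical Cys-GCA isodecoders may therefore be missing, by an amount that is not known here. Cys-GCA averaged 269.9 RPM over the 7 libraries, rank 45 from the top among 52 anticodons, and 6 anticodons above 0 were lower. The median over the 51 anticodons above 0 was 13066 RPM. Per RefSeq gene the Cys-GCA pool gave 4.74 RPM, against a median of 1868 RPM per gene over the 46 anticodons that could be matched, and the next lowest was Ser-AGA with 14.8 RPM per gene. The divisor here was the 57 RefSeq genes. The names of the counted Cys-GCA rows write out 27 gene copies, which may be too low, so how far these sets differ is not known. RefSeq and the counted tRNAs do differ for other anticodons, as for Lys-UUU with 2 genes and 5 isodecoders. Values per gene and rho are therefore rough. Across these 46 anticodons Spearman's rho between gene number and mean level was 0.28, and it was 0.35 over the 45 without Cys-GCA. These are descriptions across anticodons measured in the same libraries, not replicates. The other cysteine anticodon of the table, ACA, was listed at 0 in every library.

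**Figure D1:**
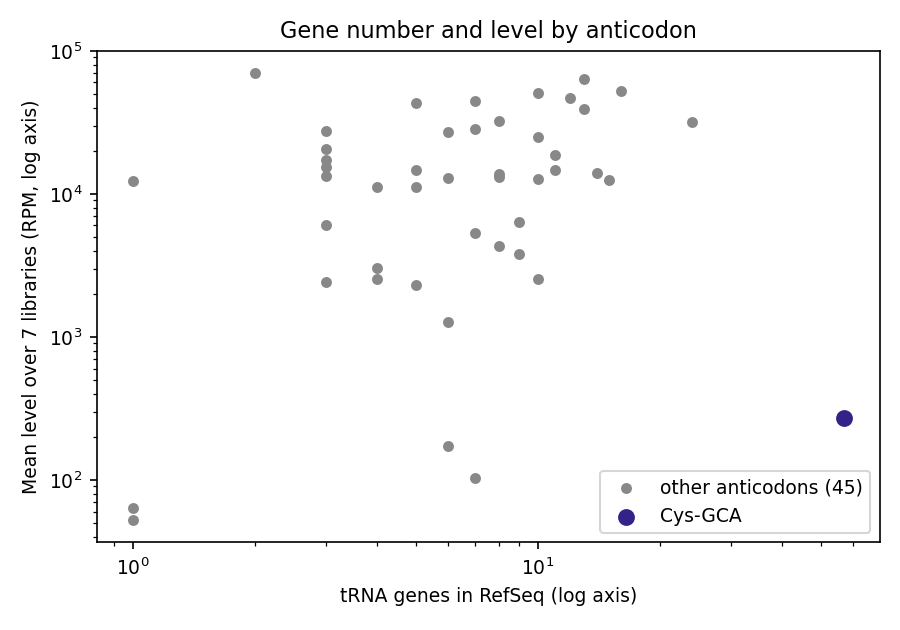
Mean level over 7 libraries (RPM, log axis) against the number of tRNA genes in RefSeq (log axis), with 1 point for each of 46 anticodons. Cys-GCA, the dark point, has the most genes (57) and a mean of 269.9 RPM, so it lies at the lower right, apart from the other 45.

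By library the Cys-GCA pool measured 252, 232 and 307 RPM in OPCs, 179.8 and 209 RPM in OLs, and 411 and 299 RPM in astrocytes. These values rest on 286 to 963 reads per library. The group means were 264 ± 38.7 RPM in OPCs (SD, n = 3), 194 ± 20.4 RPM in OLs (SD, n = 2) and 355 ± 78.9 RPM in astrocytes (SD, n = 2). The pool was lower in each OL library than in any of the 3 OPC libraries, while the lower astrocyte library lay within the OPC range. The order of the means was thus OLs, OPCs, astrocytes, with overlap between OPCs and astrocytes.

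The first comparison asks whether the cysteine pool differs once OPCs have become OLs. On the log2(RPM + 1) scale the pool was 0.43 lower in OLs (log2 difference -0.43, SE 0.18), and it did not pass the threshold of 0.01 (limma adjusted p = 0.226), which 0.0% of all 52 anticodons passed and 25.0% reached at an unadjusted limma p under 0.05. The 95% interval of the difference had a half-width of 0.50 and included 0. The median difference over the 52 anticodons was 0.12, and relative to it Cys-GCA stood at -0.55. Libraries of OLs and OPCs also did not overlap for 48.1% of all anticodons, so the separation by itself does not set the pool apart.

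The second comparison sets astrocytes, made from the same progenitors, against OPCs. The pool was 0.42 higher on the same scale (SE 0.22), with a half-width of 0.59 for the 95% interval and a limma adjusted p of 0.446. It was 0.19 without astrocyte replicate 1 and 0.65 without astrocyte replicate 2. The libraries overlapped, whereas 32.7% of all anticodons did not overlap. Here too 0.0% of the anticodons passed, and 11.5% had an unadjusted limma p under 0.05. Neither difference of the pool was therefore larger than the spread between these libraries allows to be called.

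**Figure D2:**
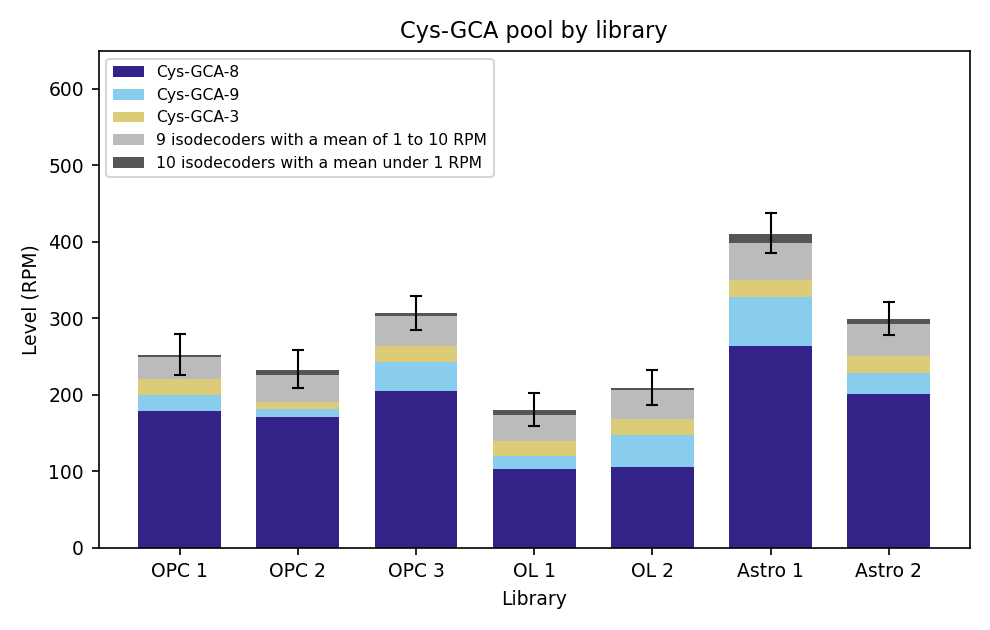
Level of the Cys-GCA pool in each library (RPM), stacked by isodecoder, with black bars for the exact 95% Poisson interval of the pool (counting error only). The OL pools (179.8 and 209 RPM) are the lowest, the dark Cys-GCA-8 segment is the largest in every bar, and the segments above it are of similar height in OPCs and OLs.

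The 22 isodecoders were very uneven in counted reads. Reads ambiguous between near-identical isodecoders may be missing to a different extent for each, which was not tested. Cys-GCA-8 held most of the reads in every library, 2480 of the 3805 in all, and Cys-GCA-9 and Cys-GCA-3 were the only others with a mean of at least 10 RPM. Another 9 averaged between 1 and 10 RPM and had from 24 to 99 reads each over the 7 libraries. The remaining 10 averaged under 1 RPM and were not tested, with from 1 to 14 reads each over all libraries. At the edge of this filter Cys-GCA-18 averaged 1.84 RPM and Cys-GCA-13, just below it, 0.938 RPM. For each of the 12 that passed the filter at least 1 read was found in every library, but only 5 had more than 3 reads in every library, so several of these levels lie at or under the 3-read limit in single libraries.

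Among the 10 low members the summed level was 4.05 ± 2.29 RPM in OPCs (SD, n = 3), 4.39 ± 2.68 RPM in OLs (SD, n = 2) and 9.61 ± 3.90 RPM in astrocytes (SD, n = 2). The sum came to 1.60 ± 1.08% of the pool in OPCs, 2.35 ± 1.63% in OLs and 2.65 ± 0.510% in astrocytes (SD, same n). No single one exceeded 7 reads in a library. Cys-GCA-25 and Cys-GCA-1, named after their values were seen, had 0 reads in both OL libraries, where the 3-read limit is 1.89 and 1.87 RPM. A difference from their OPC means of 0.744 ± 0.080 and 0.579 ± 0.678 RPM (SD, n = 3) was not detectable at this depth.

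**Figure D3:**
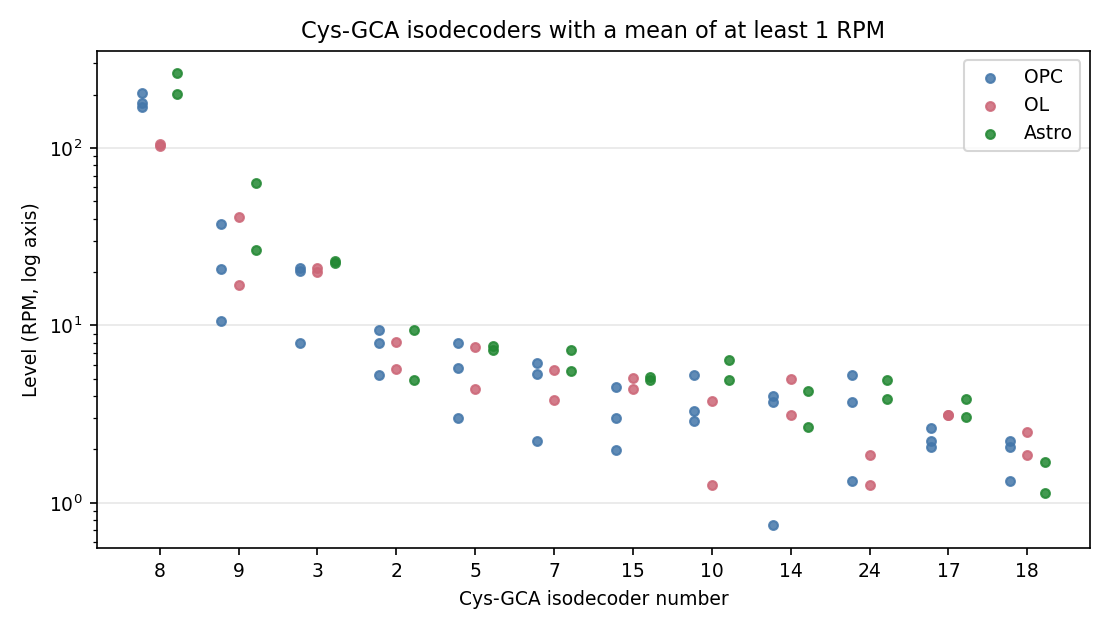
Level (RPM, log axis) of the 12 Cys-GCA isodecoders that averaged 1 RPM or more, with 1 point per library and the isodecoders ordered by mean level. Cys-GCA-8 lies above 100 RPM in all 7 libraries, with both OL points (103 and 106 RPM) below the others, and the remaining isodecoders mostly overlap between the groups.

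Cys-GCA-8, the dominant isodecoder, measured 179.2, 172 and 205 RPM in OPCs, 103 and 106 RPM in OLs, and 264 and 201 RPM in astrocytes. The OL libraries were the lowest and lay close together, while the OPC and astrocyte libraries overlapped. Its log2 difference in OLs against OPCs was -0.82 (SE 0.17), or -0.91 relative to the median of 0.09 over the 192 isodecoders tested. Under the threshold of 0.01 this was not called (limma adjusted p = 0.0176, unadjusted p = 0.00192). The sign was the same in every alternative tried, with adjusted p-values from 0.00355 to 0.146. With median-of-ratios scaling, which sets the typical tRNA equal between libraries, the difference of -0.88 passed (limma adjusted p = 0.00355). Against OPCs the astrocyte difference was 0.32 (SE 0.20, limma adjusted p = 0.378), with 0.12 without astrocyte replicate 1 and 0.51 without astrocyte replicate 2.

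Cys-GCA-9, the next in level, measured 20.9, 10.6 and 37.4 RPM in OPCs, 17.0 and 41.1 RPM in OLs, and 64.0 and 26.6 RPM in astrocytes. All groups overlapped, and replicates of one group differed by more than the groups did. The log2 difference was 0.36 in OLs (SE 0.56, limma adjusted p = 0.667) and 0.99 in astrocytes (SE 0.53, limma adjusted p = 0.309). Without OPC replicate 3 the astrocyte difference was 1.41 and passed (limma adjusted p = 0.000789), and the adjusted p-values of its other fits with no replicate block ran up to 0.795. It was 0.37 without astrocyte replicate 1, 1.60 without astrocyte replicate 2 and 0.55 without OPC replicate 2. The OL difference changed sign with the library left out, from -0.25 without OL replicate 2 and -0.08 without OPC replicate 2 to 0.79 without OPC replicate 3 and 0.98 without OL replicate 1.

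Cys-GCA-3, whose name writes out 4 gene copies, measured 20.2, 7.95 and 21.0 RPM in OPCs, 20.1 and 21.2 RPM in OLs, and 22.6 and 23.2 RPM in astrocytes. OPC replicate 2 stood below the other 6 libraries, which lay close together. The log2 difference was 0.43 in OLs (SE 0.43, limma adjusted p = 0.506) and 0.57 in astrocytes (SE 0.42, limma adjusted p = 0.416). Both astrocyte libraries lay above the OPC range, and without OPC replicate 2 the differences were 0.01 and 0.15. Without OPC replicate 3 the OL difference was 0.65.

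Of the 9 isodecoders between 1 and 10 RPM, the highest were Cys-GCA-2, Cys-GCA-5 and Cys-GCA-7. Cys-GCA-2 measured 5.23, 7.95 and 9.45 RPM in OPCs, 5.66 and 8.10 RPM in OLs, and 9.38 and 4.95 RPM in astrocytes. Cys-GCA-5 measured 2.99, 7.95 and 5.75 RPM in OPCs, 7.55 and 4.36 RPM in OLs, and 7.68 and 7.23 RPM in astrocytes. Cys-GCA-7 measured 2.24, 5.30 and 6.17 RPM in OPCs, 3.77 and 5.61 RPM in OLs, and 5.54 and 7.23 RPM in astrocytes. The groups overlapped for each of these, at levels where a single read was worth between 0.381 and 0.747 RPM.

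Over the 12 isodecoders tested, 0 passed in level in OLs against OPCs, where 5.73% of all isodecoders did (limma adjusted p under 0.01). At an unadjusted limma p under 0.05 there was 1, Cys-GCA-8, against 32.8% of all. Of these 12, 8 were higher and 4 lower in the mean, and their median difference was 0.14, next to 0.09 over all 192. The OL libraries lay above the OPC range for 1 of the 12 and below it for 1, against 30.2% and 22.9% of all isodecoders. Read against this background, the members as a list were called no more often than other isodecoders.

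In astrocytes against OPCs 0 of the 12 passed, as for 0.0% of all isodecoders, and 0 had an unadjusted limma p under 0.05, against 20.8% of all. Of these, 10 had a positive difference, and the median of the 12 was 0.43 next to 0.01 over all 192 isodecoders. The astrocyte libraries lay above the OPC range for 3, which were Cys-GCA-3, Cys-GCA-15 and Cys-GCA-17, and below it for 0. Over all isodecoders 16.7% lay above and 22.9% below.

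**Figure D4:**
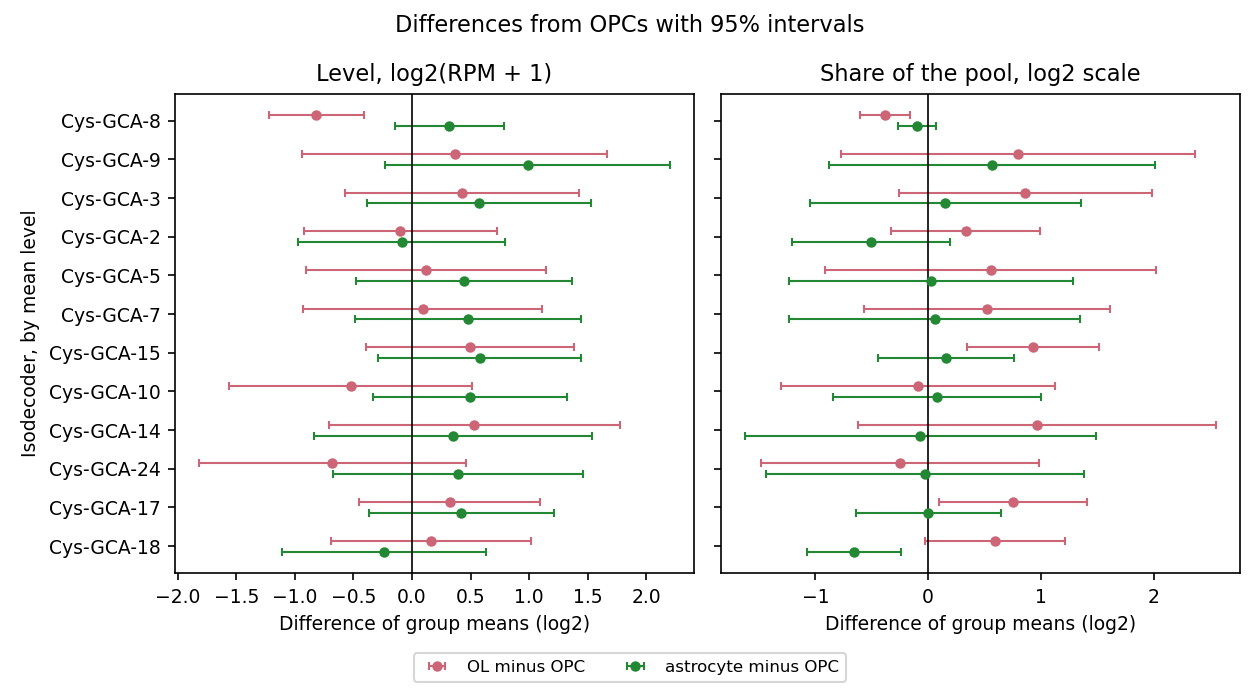
Differences from OPCs for the 12 isodecoders, in level on the log2(RPM + 1) scale (left) and in share of the pool (right), with limma's 95% intervals, for OLs and for astrocytes. The OL difference of Cys-GCA-8 (-0.82 in level, -0.38 in share) has an interval that excludes 0, although neither value passed the adjusted threshold of 0.01, and all other level intervals include 0.

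The composition of the pool was compared next, as each isodecoder's share of the counted Cys-GCA reads. The limit from uncounted ambiguous reads applies to these shares too. Cys-GCA-8 made up 71.2%, 73.8% and 66.8% of the pool in OPCs, 57.3% and 50.7% in OLs, and 64.3% and 67.3% in astrocytes. The Wilson 95% interval of the higher OL share ran from 51.6% to 62.9% and that of the lowest OPC share from 63.3% to 70.1%. Both OL shares lay below all 5 other libraries. The group means were 70.6 ± 3.53% in OPCs (SD, n = 3), 54.0 ± 4.66% in OLs (SD, n = 2) and 65.8 ± 2.14% in astrocytes (SD, n = 2). As a log2 difference the share of Cys-GCA-8 was -0.38 in OLs (SE 0.08, limma adjusted p = 0.0567) and -0.10 in astrocytes (SE 0.06, limma adjusted p = 0.415).

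Shares within a pool are tied to each other, so a lower share of the dominant isodecoder goes with higher shares elsewhere. Cys-GCA-3 made up 8.01%, 3.42% and 6.83% of the pool in OPCs and 11.2% and 10.1% in OLs, with a log2 difference of 0.86 (SE 0.40, limma adjusted p = 0.253) that was 0.52 without OPC replicate 2. The share of Cys-GCA-9 ranged from 4.56% to 12.2% in OPCs and was 9.44% and 19.7% in OLs, so these groups overlapped. Its log2 difference was 0.80 (SE 0.56, limma adjusted p = 0.426), and it was 0.29 without OL replicate 2, 0.44 without OPC replicate 2 and 1.31 without OL replicate 1. Cys-GCA-15 and Cys-GCA-17, named after their values were seen, differed by 0.93 (SE 0.21, limma adjusted p = 0.0600) and 0.75 (SE 0.23, limma adjusted p = 0.118).

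**Figure D5:**
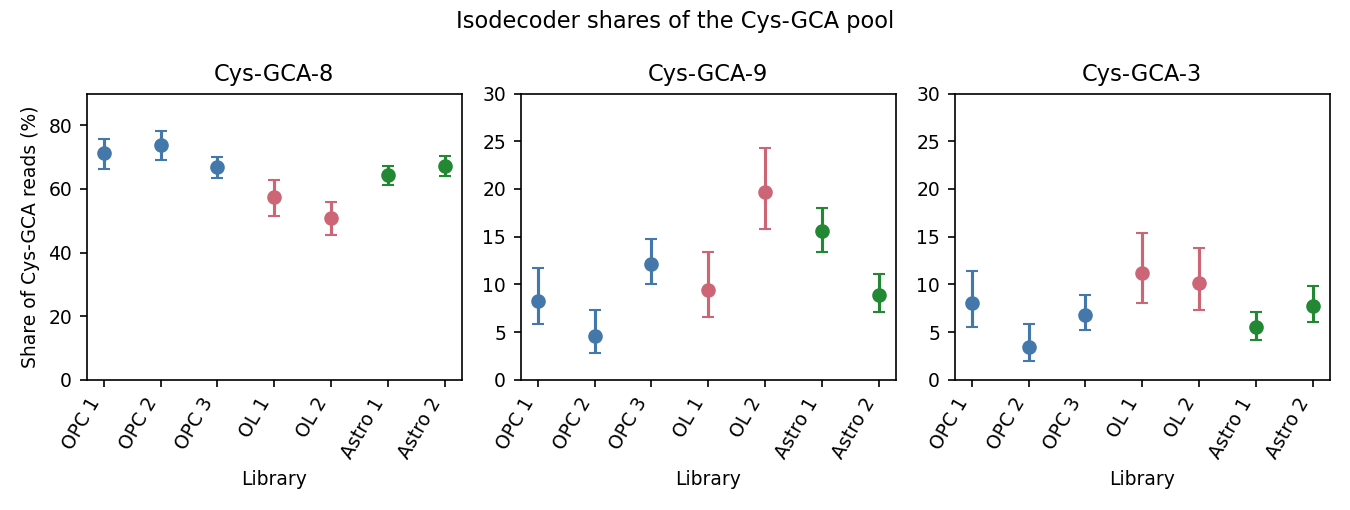
Share of the Cys-GCA reads (%) in each library for Cys-GCA-8, Cys-GCA-9 and Cys-GCA-3, with Wilson 95% intervals (counting error only). The vertical scale differs between Cys-GCA-8 and the others. The Cys-GCA-8 shares of OLs (57.3% and 50.7%) lie below every other library, and the Cys-GCA-3 shares of OLs (11.2% and 10.1%) lie above every other library.

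Of the 12 isodecoders, 0 passed in share in OLs against OPCs, where 2.17% of the 184 isodecoders tested for share did (limma adjusted p under 0.01). At an unadjusted limma p under 0.05 there were 3, namely Cys-GCA-8, Cys-GCA-15 and Cys-GCA-17, against 31.0% of all. The OL shares lay above the OPC range for 5 of the 12, next to 28.8% of all, and below it for 1, next to 27.2% of all. In astrocytes against OPCs 0 passed, next to 0.0% of all, and 1 had an unadjusted limma p under 0.05, next to 23.4% of all. That was Cys-GCA-18 with a log2 difference of -0.66 (SE 0.15, limma adjusted p = 0.0947), named after its values were seen and resting on 24 reads in all. It was also the only share outside the OPC range, below it, next to 23.4% of all below and 20.1% above.

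The evenness of the pool was summarised as an effective number, which is the number of equally abundant isodecoders with the same Shannon entropy. It was 3.30, 3.45 and 3.74 in OPCs, 5.25 and 5.26 in OLs, and 4.03 and 3.92 in astrocytes. The OL values lay above those of all other libraries, and the astrocyte values lay above the OPC range too. The difference of means was 1.76 for OLs against OPCs and 0.485 for astrocytes against OPCs, with two-sided exact permutation p-values of 0.1 and 0.2 (both 0.2 after adjustment over the 2 comparisons). With 3 libraries against 2 an exact test cannot give less than 0.1. The pools rested on 337, 351 and 747 reads in OPCs, 286 and 335 reads in OLs, and 963 and 786 reads in astrocytes. An effect of this depth on the effective number was not tested. The inverse Simpson index, which weighs abundant isodecoders more, was 1.91, 1.81 and 2.14 in OPCs, 2.81 and 3.21 in OLs, and 2.26 and 2.13 in astrocytes. On it OLs lay above OPCs while astrocytes overlapped them. Both measures are computed from the same shares, of which that of Cys-GCA-8 is the largest, so they are not separate results.

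The sum of the pool without Cys-GCA-8, computed after the data had been seen, was 72.4, 60.9 and 102 RPM in OPCs, 76.7 and 103 RPM in OLs, and 147 and 97.8 RPM in astrocytes. OLs and OPCs overlapped, and the log2 difference of OLs was 0.21 as a description, in contrast to -0.43 for the whole pool. This value rested on single libraries: leaving out OL replicate 2 gave 0.00 and leaving out OPC replicate 2 gave 0.05, while it was 0.41 with OPC replicate 3 left out and 0.42 with OL replicate 1 left out. For astrocytes it was 0.64, and 0.35 without astrocyte replicate 1. Without Cys-GCA-9 as well, the sum was 51.5, 50.3 and 64.5 RPM in OPCs, 59.7 and 61.7 RPM in OLs, and 82.7 and 71.2 RPM in astrocytes. On that sum OPCs and OLs again overlapped and both astrocyte libraries were higher than the other 5.

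OLs and astrocytes are described without a test, since this contrast had drawn attention to the family. The OL pool (179.8 and 209 RPM) lay below the astrocyte pool (411 and 299 RPM), a log2 difference of -0.85, and 9.62% of the 52 anticodons were placed likewise. Cys-GCA-8 differed by -1.13. Of the 12 isodecoders 4 had both OL libraries below both astrocyte libraries, which were Cys-GCA-8, Cys-GCA-10, Cys-GCA-24 and Cys-GCA-3, next to 19.8% of all 192. Only Cys-GCA-18 lay above, next to 40.6% of all, with 4 and 3 reads in OLs and also 4 and 3 reads in astrocytes. In OLs Cys-GCA-10 had 2 and 6 reads and Cys-GCA-24 had 2 and 3 reads. Cys-GCA-3 differed by only -0.14.

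Cys-GCA shares the UGN codon box with the tRNAs for selenocysteine (SeC-UCA), which reads UGA in selenoprotein mRNAs, and tryptophan (Trp-CCA). Anticodons are written with U where the table has T. Of these 3, 0 passed the limma threshold in either comparison, as for 0.0% of all anticodons. At an unadjusted limma p under 0.05 there was 1 in OLs, next to 25.0% of all anticodons, and 0 in astrocytes, next to 11.5%. SeC-UCA averaged 2195 ± 90.9 RPM in OPCs (SD, n = 3), 3356 ± 98.6 RPM in OLs (SD, n = 2) and 2662 ± 163 RPM in astrocytes (SD, n = 2). Its log2 difference was 0.61 in OLs (limma adjusted p = 0.0402) and 0.28 in astrocytes (limma adjusted p = 0.351). The study itself, with another test (DESeq2) at the same threshold, called SeC-UCA higher in OLs than in OPCs. Trp-CCA differed by 0.17 in OLs (limma adjusted p = 0.308) and by 0.22 in astrocytes (limma adjusted p = 0.446). Cys-GCA was the only one of the 3 with a value below 0 in OLs.

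Cys-GCA is also one of 7 pools with a G at the wobble position that read a pair of codons ending in U or C, with Phe-GAA, Tyr-GUA, His-GUG, Asn-GUU, Asp-GUC and Ser-GCU. Of these 7, 0 passed the limma threshold in OLs or in astrocytes, as for 0.0% of all anticodons. At an unadjusted limma p under 0.05 there were 4 in OLs, next to 25.0% of all, and 0 in astrocytes, next to 11.5%. Their median difference was 0.15 in OLs, next to 0.12 over all anticodons, and -0.11 in astrocytes, next to 0.00. In OLs 2 of the 7 had a negative value, Cys-GCA with -0.43 and Phe-GAA with -0.22 (limma adjusted p = 0.185). With DESeq2 at the same threshold the study called Phe-GAA lower in OLs, and it also reports a lower signal on Northern blots. The largest positive values were 0.39 for Asn-GUU (limma adjusted p = 0.132) and 0.37 for Asp-GUC (limma adjusted p = 0.0464). In astrocytes Asp-GUC had 0.29 (limma adjusted p = 0.351), Asn-GUU 0.03 (limma adjusted p = 0.957), and the other 4 pools besides Cys-GCA between -0.18 and -0.11.

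Across the 7 libraries the anticodons whose log2 level followed that of Cys-GCA most closely were Val-AAC (Pearson's r = 0.95), Val-CAC (r = 0.86) and Lys-UUU (r = 0.81). Val-AAC averaged 4243 ± 756 RPM in OPCs (SD, n = 3), 3464 ± 288 RPM in OLs (SD, n = 2) and 5319 ± 1460 RPM in astrocytes (SD, n = 2). These coefficients describe libraries that share their cell types and their scaling, and carry no test.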

How the data were processed

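The authors ligated adapters to deacylated total RNA (QuantM-seq), trimmed reads with cutadapt, aligned them with Bowtie2 to mature tRNAs of mm10 with identical genes collapsed, and counted them by strand with featureCounts at a mapping quality of at least 10. How many reads that filter removed is not given in the sources used here. Levels of near-identical Cys-GCA isodecoders, between which reads can be ambiguous, and of the pool summed from them, are therefore uncertain. So are the shares and effective numbers computed from these levels. The deposited values used here are RPM, scaled by the authors to all cytosolic and mitochondrial tRNA reads. The deposited tables of the authors' own OPC and OL comparison (means, fold changes, p-values) were not used.

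Divided by the worth of 1 read, every value (100%) came out whole (within 0.01 read), which gave the depths and the counting intervals (95%, Wilson for shares, exact Poisson for the pool). Differences were tested with limma 3.58.1 in R 4.3.3 on log2(RPM + 1), two-sided, OPCs with OLs and OPCs with astrocytes fitted apart, with a variance trend for levels and none for shares. The Benjamini-Hochberg adjustment covered all 52 anticodons, all 192 isodecoders that averaged 1 RPM or more, or for shares the 184 of these in pools with at least 2 such members. The threshold was 0.01, as in the study. Effective numbers were compared with exact permutation tests in scipy 1.17.1. The limma script was tested on simulated data. Replicates are described as biological, and p-values measure the spread between these libraries. The OL replicates came from OPC replicates of the study, but the main tests treated all libraries as independent.

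Members, lists and tests were chosen with earlier results of these data known. By rule the text names the 6 isodecoders highest in mean RPM, any member past the threshold, members of at least 10 RPM, Cys-GCA-8, the 3 anticodons with the most similar levels and the 2 lists. Alternatives covered pseudocounts of 0.1 and 10 RPM, scaling, filters, a joint fit, the variance trend, the threshold, a replicate block and leaving out each library. No tRNA sequence is printed here. Gene positions are from RefSeq (GRCm38.p6) and their context from GENCODE.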

Additional observations from a re-analysis of the deposited data

Results flagged for a closer look

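In the Cys-GCA pool both OL libraries lay below the OPC mean and both astrocyte libraries above it, with a difference between the log2 changes, OLs minus astrocytes, of -0.85. In Cys-GCA-8 the libraries were placed likewise, with a difference of -1.13. Neither difference was tested, and both comparisons share the OPC libraries. The family had been selected on this contrast, so the values are a description.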

How the results depend on the processing

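Of the 279 recomputed values, 270 were labelled as unchanged. For fitted differences this meant the same direction and side of the threshold, and for counts of isodecoders an equal count. For effective numbers it meant the same direction only. For the sum without Cys-GCA-8 it meant a shift smaller than the OPC SD, so that label is a loose one. The count of Cys-GCA isodecoders past the threshold in level in OLs against OPCs went from 0 to 1, Cys-GCA-8, with median-of-ratios scaling (-0.88) and with a threshold of 0.05, where the fit was unchanged and the limit looser. In astrocytes it went from 0 to 1, Cys-GCA-9 (1.41), with the replicate block and without OPC replicate 3, and ranged from 0 to 1 over libraries left out. Only OPCs have a replicate 3, so the block sets that library aside in the comparison and gives the same difference. The 2 settings are therefore not separate results. Why the call depended on OPC replicate 3 was not tested. Without OL replicate 2 or OPC replicate 2 the level of Cys-GCA-9 in OLs was reversed (-0.25 and -0.08), and over libraries left out it ranged from -0.25 to 0.98.

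With the replicate block the pool difference was -0.32 in OLs (limma adjusted p = 0.429) and 0.53 in astrocytes (limma adjusted p = 0.318), and that of Cys-GCA-8 was -0.74 in OLs (limma adjusted p = 0.0452). Each of these differences equals the one without OPC replicate 3. Beside Cys-GCA-9 in astrocytes (limma adjusted p = 2.42e-05) the block changed no call. Which OPC cultures gave rise to which OLs is not stated, so the numbers were not taken as pairs. Deviations of same-numbered libraries over 192 isodecoders correlated at 0.00 for OPCs with OLs and 0.17 for OPCs with astrocytes. For OLs with astrocytes the correlation was -0.29. With 2 pairs each, these values cannot decide whether the numbers mark pairs. The evenness of the pool could not be computed with members of at least 100 RPM, since only Cys-GCA-8 was left.

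Depth limits the isodecoders under 10 RPM, where a library often held fewer than 10 reads.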
